A study of Mus musculus with 20 samples.

Results

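The genes described are Hmgcs1, Mvd, Idi1, Fdft1, Sqle, Lss, Cyp51, Sc5d, Dhcr7 and Insig1, which are 9 enzymes of cholesterol synthesis and 1 regulator of the pathway. They were taken by gene symbol from the array's annotation, using probe sets with a single symbol and, where a gene had several, the one with the highest mean over the 20 arrays. All 10 were found among the 19937 genes measured in this way.

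Expression was measured in 7 groups of mammary epithelial cells sorted from pooled mice (mixed background FVB/CD-1) 4 weeks after tamoxifen. The mutant groups carried K8-creERT2 and a PIK3CA H1047R transgene, and the control groups carried K8-creERT2 alone; the labels give tamoxifen for both. In mutants GFP marked the cells that expressed the transgene, a mutant form of the catalytic subunit of phosphoinositide 3-kinase (PI3K). All cells were CD45-negative. The Sca1-negative luminal gate (CD24 high) gave 3 mutant GFP-positive and 3 control arrays, and the Sca1-positive luminal gate (CD24 high) gave 2 mutant GFP-positive and 3 control arrays. The basal gate (CD24 low, Sca1 negative) gave 3 mutant GFP-positive, 3 mutant GFP-negative and 3 control arrays. Control cells were gated as GFP-negative. Each array held RNA of 2000 cells, amplified before labelling, from the joined glands of 2 to 3 mice brought into the same estrus stage, with 3 separate sorts in all. No age of the mice is given in the labels used here. The Cre is driven by the promoter of keratin 8, a luminal keratin, so GFP-positive cells are those in which that promoter acted or that descend from such cells, and control cells were not chosen in that way.

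Cells make cholesterol from acetyl-CoA through the mevalonate pathway. Its early enzymes build isoprenoid units, the middle enzymes join these into squalene and close it into the first sterol, lanosterol, and the late enzymes turn lanosterol into cholesterol. When sterols in the membrane of the endoplasmic reticulum run low, SCAP carries the transcription factors SREBP to the Golgi, where they are cut and released to switch on genes of the pathway. INSIG proteins hold SCAP back when sterols are plentiful, and Insig1 is itself an SREBP target. Mammary epithelium uses the pathway for membranes and for milk fat, and PI3K signalling is known to raise SREBP activity in several cell types.

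SREBP binds sterol regulatory elements, often beside a CCAAT box bound by the factor NF-Y. RefSeq promoter windows (assembly GRCm38.p6, 250 bases before to 50 bases after a gene's start) were at hand for 8 of the 10 genes, in 10 windows, and not for Fdft1 and Sqle. They were searched on both strands for the sterol regulatory element of the LDL receptor type, TCACNCCAC, and for CCAAT and the Sp1 box GGGCGG. TCACNCCAC stood in 1 of the 10 windows, that of Hmgcs1, where it began 137 bases before the start (position -137), and in 1.24% of all 32851 windows. CCAAT stood in 8 of the 10 windows, against 37.4% of all windows, and GGGCGG in 9 of the 10, against 35.7%. Each of the 8 genes had at least 1 window with either. A match is only a match of letters, and a window without one says nothing of SREBP binding. The 250 bases before the start are printed for Hmgcs1, the gene that holds the element, and for Sc5d, the gene with a window that was called in the basal gate and lacks it. Capitals mark TCACNCCAC and the CCAAT box, which reads ATTGG on the other strand.
Hmgcs1 (chr13:119690101-119690350, plus strand): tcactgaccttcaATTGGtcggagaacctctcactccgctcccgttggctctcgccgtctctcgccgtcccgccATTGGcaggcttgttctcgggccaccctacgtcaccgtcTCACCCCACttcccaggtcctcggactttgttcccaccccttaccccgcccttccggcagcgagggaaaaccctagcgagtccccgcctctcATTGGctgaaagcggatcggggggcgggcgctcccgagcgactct
Sc5d (chr9:42264301-42264550, minus strand): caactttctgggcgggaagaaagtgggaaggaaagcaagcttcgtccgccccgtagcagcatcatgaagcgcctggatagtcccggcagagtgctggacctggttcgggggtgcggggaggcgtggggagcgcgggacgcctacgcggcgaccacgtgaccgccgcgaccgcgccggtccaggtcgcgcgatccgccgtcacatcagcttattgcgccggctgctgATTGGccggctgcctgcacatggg

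All levels below are log2 probe set values as deposited, where array medians lay between 3.66 and 3.80, and all differences are on the same log2 scale. A gene was called when limma's Benjamini-Hochberg adjusted p over all 19937 genes was under 0.05 in the comparison. The words rose and fell name a difference between groups. For genes of a list they mean called differences, and its uncalled genes can also lie above or below 0. Marker genes fitted the gates: all 6 basal markers were higher and all 6 luminal markers lower in control basal cells than in each control luminal group, and the call held for every one of them. Mean levels of the markers of adipocytes, immune cells, endothelium and fibroblasts lay between 3.16 and 4.04 on every array, near the array medians. The SD over genes was 1.58 for replicate 2 of GFP-positive basal cells and 1.59 for replicate 2 of the control Sca1-positive luminal gate, and 1.65 to 1.77 for the other 18 arrays. Replicate 2 of GFP-negative basal cells stood apart from its group, as described below.

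Levels of the cholesterol genes followed the gates unevenly. Mutant Sca1-positive luminal cells had the highest mean of the 7 groups for 6 of the 10 genes (Hmgcs1, Fdft1, Sqle, Lss, Cyp51 and Sc5d), and control basal cells had the lowest for 3 (Idi1, Sqle and Sc5d). When each gene was centred on its own mean and the 10 genes were averaged per array, mutant Sca1-positive luminal cells stood at 0.45 ± 0.08 (SD, n = 2), against 0.05 ± 0.08 in control Sca1-positive luminal cells (SD, n = 3). Mutant Sca1-negative luminal cells stood at 0.03 ± 0.06, against -0.11 ± 0.10 in control cells of that gate (SD, n = 3 each). GFP-positive basal cells stood at 0.04 ± 0.21 and GFP-negative basal cells at -0.15 ± 0.43, against -0.31 ± 0.16 in control basal cells (SD, n = 3 each). The map of group means shows that Sqle, Fdft1 and Sc5d carried the widest contrasts among the 10 genes. Their group means spanned 2.47, 2.04 and 1.77, against a median span of 0.43 over all genes, and Lss, Cyp51 and Mvd spanned 0.52, 0.51 and 0.49. In these pooled samples, fewer cells of a type and less RNA per cell cannot be told apart.

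**Figure D1:**
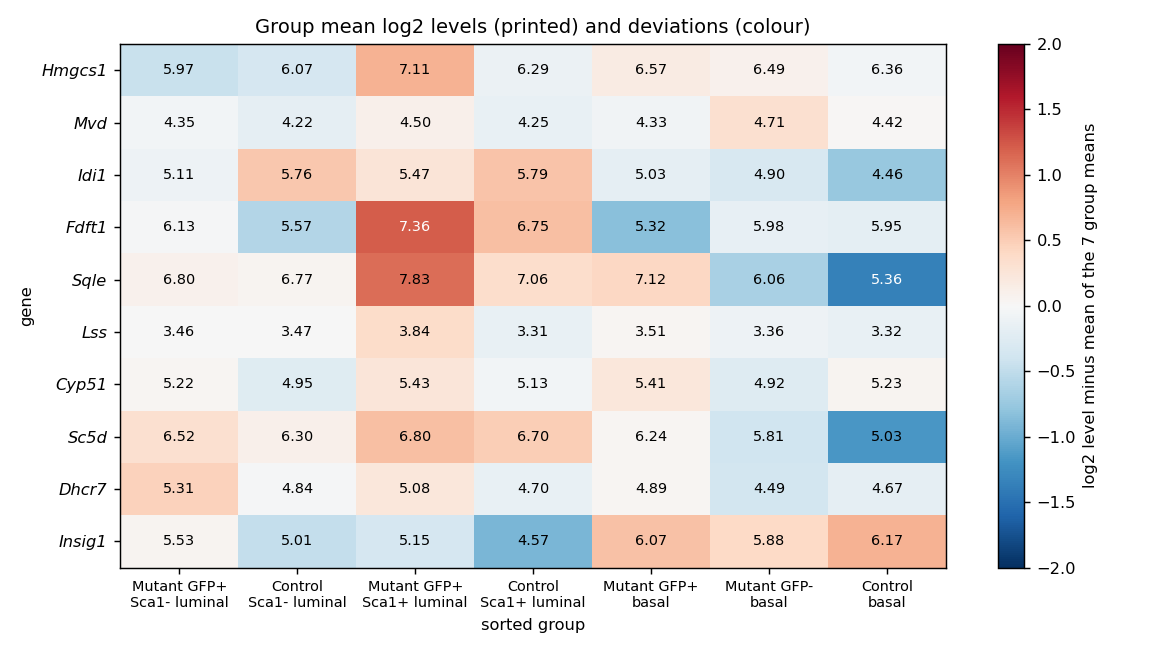
Mean log2 level of each of the 10 genes (rows) in each of the 7 sorted groups (columns), printed in the cells. Colour gives the difference of that mean from the mean of the gene's 7 group means, and the strongest blue stands at Sqle and Sc5d in control basal cells (5.36 and 5.03).

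Among the early enzymes, Hmgcs1 encodes the synthase that makes HMG-CoA. Its log2 level was 7.02 and 7.20 in mutant Sca1-positive luminal cells, against 6.44, 6.24 and 6.21 in control cells of that gate. Both mutant arrays lay above the controls, and above every array of the Sca1-negative luminal groups, but the difference of 0.82 ± 0.30 (SE) was not called (adjusted p = 0.43). In the Sca1-negative gate the level was 5.97 ± 0.35 in mutant and 6.07 ± 0.16 in control cells (SD, n = 3 each). GFP-positive basal cells had 6.57 ± 0.36 and GFP-negative basal cells 6.49 ± 0.69, against 6.36 ± 0.12 in control basal cells (SD, n = 3 each). In the order of the group means, only the top group and the step from control Sca1-positive to control Sca1-negative luminal cells were free of overlap with the next group.

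Mvd, the decarboxylase that yields isopentenyl diphosphate, stayed between 4.12 and 4.76 on 19 of the 20 arrays. The exception was replicate 2 of GFP-negative basal cells at 5.69, beside 4.18 and 4.27 in the other arrays of that group. Idi1, the isomerase that converts isopentenyl diphosphate into its reactive partner, varied more within groups than 98.3% of all genes. Its mean was 5.11 ± 0.25 in mutant and 5.76 ± 0.53 in control Sca1-negative luminal cells (SD, n = 3 each), and 5.47 ± 0.32 in mutant (SD, n = 2) and 5.79 ± 0.69 in control Sca1-positive luminal cells (SD, n = 3). In the basal gate it was 5.03 ± 0.46 in GFP-positive and 4.90 ± 1.33 in GFP-negative cells, against 4.46 ± 0.67 in control cells (SD, n = 3 each). Neighbouring groups overlapped throughout the order of means of both genes, and neither was called in any comparison.

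Fdft1 encodes squalene synthase, the enzyme that commits farnesyl diphosphate to sterols, and it separated the luminal gates. Mutant Sca1-positive luminal cells had 7.26 and 7.46, against 6.51, 6.74 and 7.01 in control cells of that gate. Mutant Sca1-negative luminal cells had 6.15, 6.26 and 5.97, against 5.70, 5.45 and 5.56 in control cells of that gate. In both gates the mutant arrays lay above the control arrays without overlap, by 0.61 ± 0.20 and 0.55 ± 0.18 (SE), and neither difference was called (adjusted p = 0.333 and 0.171). In the basal gate the order was the other way. GFP-positive basal cells had 5.68, 5.02 and 5.27 and GFP-negative basal cells 5.84, 5.88 and 6.24, against 6.22, 5.89 and 5.74 in control basal cells. On the probe set used, all GFP-positive arrays lay below those of both other basal groups. The difference was -0.63 ± 0.18 (SE) from control basal cells (adjusted p = 0.0608) and -0.66 ± 0.18 (SE) from GFP-negative cells (adjusted p = 0.0557), and neither was called. On a second single-symbol probe set for Fdft1, GFP-positive mutant arrays overlapped the controls in all 3 gates. This probe set gave 5.74, 4.86 and 4.86 in GFP-positive and 5.23, 5.69 and 5.49 in control basal cells. GFP-negative basal cells had 4.97, 5.10 and 5.09 on it, so GFP-positive arrays overlapped these too. In the Sca1-negative luminal gate it gave 5.35, 5.28 and 5.003 in mutant and 5.82, 5.08 and 5.11 in control cells, and in the Sca1-positive gate 6.79 and 7.49 in mutant and 6.94, 6.44 and 6.17 in control cells. With the mean of both probe sets the Sca1-negative luminal difference was 0.21 and not called.

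Sqle, squalene epoxidase, the first oxygen-using and a rate-limiting step of the sterol branch, had the widest span of group means among the 10 genes. GFP-positive basal cells had 7.52, 6.66 and 7.18 and GFP-negative basal cells 5.88, 6.13 and 6.17, against 5.71, 4.59 and 5.78 in control basal cells. The 3 basal groups did not overlap, and GFP-positive basal cells lay within the range of the luminal arrays. Mutant Sca1-positive luminal cells had 7.71 and 7.94, against 7.33, 6.54 and 7.31 in control cells, and mutant Sca1-negative luminal cells had 6.92, 6.69 and 6.80, against 6.92, 6.78 and 6.60 in control cells. Lss, which closes squalene epoxide into lanosterol, lay between 3.07 and 4.03 on all arrays, around the array medians. Its mean was 3.84 ± 0.27 in mutant (SD, n = 2) and 3.31 ± 0.22 in control (SD, n = 3) Sca1-positive luminal cells, and between 3.32 and 3.51 in the other 5 groups.

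**Figure D2:**
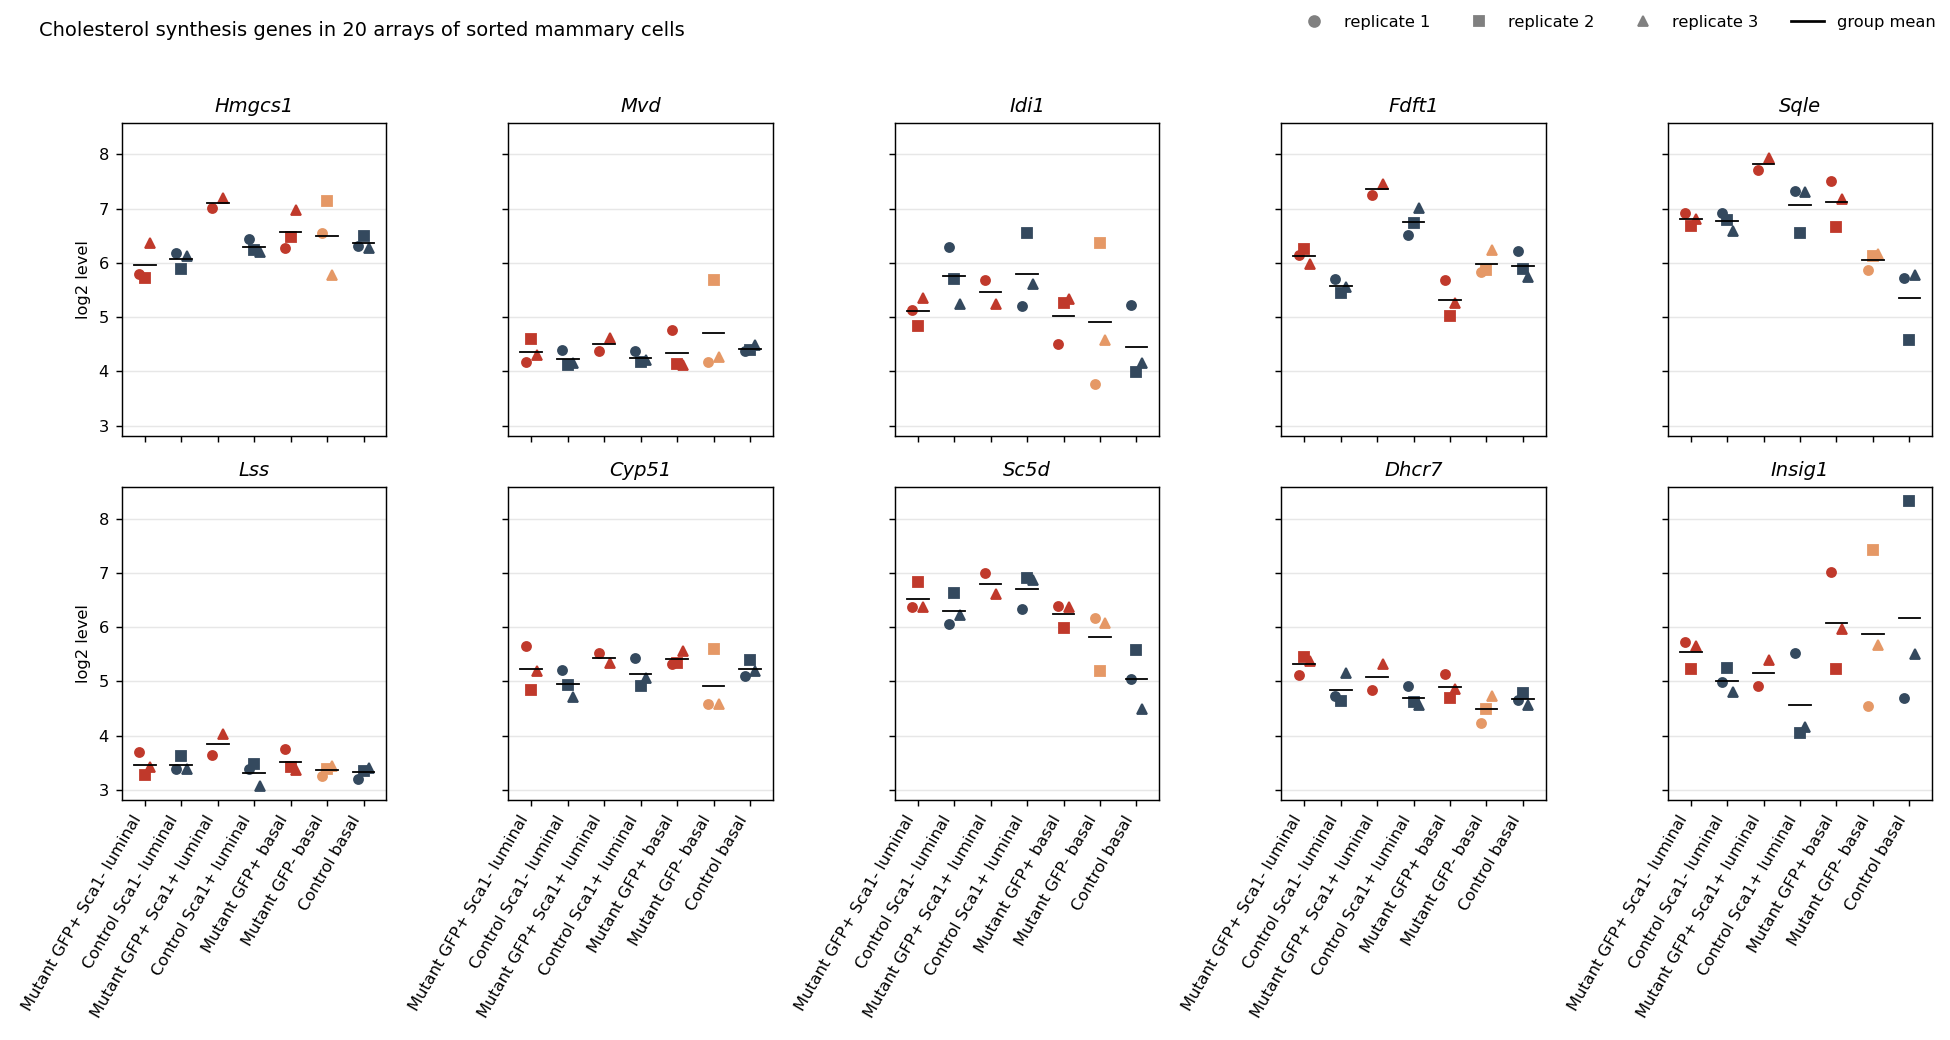
Log2 level of each of the 10 genes on each of the 20 arrays, by sorted group, with mutant groups left of their controls. Each point is 1 array, its shape gives the replicate number and a bar marks the group mean. Sqle in GFP-positive basal cells (6.66 to 7.52) lies above all GFP-negative and control basal arrays, and Insig1 scatters widely within the basal groups.

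Among the late enzymes, Sc5d (lathosterol oxidase, which sets a double bond in the sterol ring) showed a graded pattern. GFP-positive basal cells had 6.38, 5.99 and 6.36 and GFP-negative basal cells 6.16, 5.20 and 6.07, against 5.04, 5.58 and 4.48 in control basal cells. GFP-positive arrays all lay above the control arrays, while GFP-negative arrays overlapped both. Luminal means were 6.52 ± 0.26 in mutant and 6.30 ± 0.30 in control Sca1-negative cells (SD, n = 3 each), and 6.80 ± 0.28 in mutant (SD, n = 2) and 6.70 ± 0.32 in control Sca1-positive cells (SD, n = 3). Over the 7 group means Sc5d and Sqle had r = 0.937, the highest of the pairs among the 10 genes. This is a description over 7 points that share arrays and processing.

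Cyp51, the demethylase that acts on lanosterol, kept its group means between 4.92 and 5.43, and all neighbours in their order overlapped. Dhcr7, the reductase that ends the pathway, had its highest mean in mutant Sca1-negative luminal cells. Its log2 levels there were 5.11, 5.45 and 5.37, against 4.73, 4.63 and 5.16 in control cells of that gate. The groups overlapped by 1 control array, and the difference of 0.47 ± 0.18 (SE) was not called (adjusted p = 0.28). The means of Dhcr7 in the other 5 groups lay between 4.49 and 5.08.

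Insig1, the brake on SREBP processing, was the noisiest of the 10 genes, with a within-group SD of 1.07, above that of 99.7% of all genes. GFP-positive basal cells had 7.02, 5.23 and 5.96 and GFP-negative basal cells 4.55, 7.41 and 5.66, against 4.69, 8.32 and 5.50 in control basal cells. In each basal group the highest array lay more than 1 unit above the next, and the groups overlapped. Mutant Sca1-negative luminal cells had 5.53 ± 0.26, against 5.01 ± 0.22 in control cells (SD, n = 3 each), and mutant Sca1-positive luminal cells had 5.15 ± 0.34 (SD, n = 2), against 4.57 ± 0.83 in control cells (SD, n = 3). Over the 7 group means Insig1 ran opposite to Idi1 (r = -0.935) and Sc5d (r = -0.740), again over 7 points that share arrays. The value with Idi1 is named as the lowest of the pairs among the 10 genes, and the basal means of Insig1 lean on single high arrays. No difference of Insig1 was called in any comparison, and with an SE of 0.80 or more, differences of that size were not detectable with these arrays.

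The comparison of transgene-expressing with control cells in the basal gate called 2 of the 10 genes, both higher. Sqle rose by 1.76 ± 0.29 (SE, adjusted p = 0.0017), to a mean of 7.12 ± 0.43 in GFP-positive basal cells, against 5.36 ± 0.67 in control basal cells (SD, n = 3 each). Sc5d rose by 1.21 ± 0.29 (SE, adjusted p = 0.0247), to 6.24 ± 0.22, against 5.03 ± 0.55 (SD, n = 3 each). Of all genes, 4.23% were called in this comparison. The other 8 genes were not called, and their differences ran from -0.63 (Fdft1) to 0.57 (Idi1). The median difference of the 10 genes was 0.20, against -0.03 over all genes, and 7 of the 10 were above 0, against 43.3% of all genes. In 3 of the 10 the arrays did not overlap (Sqle and Sc5d above, Fdft1 below), against 18.6% of all genes.

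Luminal markers moved in the same comparison. The mean level of the 6 luminal markers was 9.53, 8.79 and 9.37 in GFP-positive basal cells, against 8.64, 8.87 and 8.30 in control basal cells, and 10.60 to 10.80 in the luminal groups. All 6 differences were above 0, and Krt18 (1.01) and Krt19 (1.48), keratins of luminal cells, rose. Of the 6 basal markers, the oxytocin receptor gene Oxtr (-1.84) and the smooth muscle myosin gene Myh11 (-0.70) fell. Of 6 luminal progenitor and alveolar markers 3 were called higher. The mean level of all 6 was 6.68 to 7.61 in GFP-positive basal cells, against 4.58 to 5.52 in control basal cells. Of 5 fibroblast markers the collagen gene Col1a2 rose by 0.88, at mean levels of the list of 3.61 to 3.89 in GFP-positive and 3.57 to 3.77 in control basal cells. Of 5 endothelial markers the cadherin gene Cdh5 fell by 0.99, at mean levels of 3.18 to 3.36 in GFP-positive and 3.35 to 3.97 in control basal cells. By limma 0 of 5 cell cycle genes were called, with 0 at an unadjusted p under 0.05. Their mean level was 4.27, 4.20 and 5.81 in GFP-positive and 4.11 to 4.57 in control basal cells, so only GFP-positive replicate 3 lay above the controls. Of all genes, 4.23% were called in this comparison and 16% had an unadjusted p under 0.05. Both Sqle and Sc5d were lower in control basal than in control luminal cells, and the part of these markers in their difference was not tested. Without the 3 arrays that stood apart, Sqle rose by 1.99 (adjusted p = 0.00143) and Sc5d by 1.34 (adjusted p = 0.0196). The array left out of this comparison, GFP-positive replicate 2, was the lowest of its group for both genes, so both differences could only grow. Control basal replicate 2, the lowest of its group for Sqle, was kept. When only the compared arrays were fitted, neither was called (adjusted p = 0.109 for Sqle and 0.142 for Sc5d). The call of Sc5d was also lost without control replicate 1 or 3 or GFP-positive replicate 1 or 3 (adjusted p up to 0.108, differences 0.93 to 1.21), and that of Sqle held without any 1 array (1.37 to 1.99).

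Cells of the mutant basal gate that did not express the transgene showed no called difference from control basal cells. By limma 0 of the 10 genes were called, against 0.161% of all genes, and 2 had an unadjusted p under 0.05, against 9.69% of all genes. These were Sqle, higher by 0.70 ± 0.29 (SE, adjusted p = 0.443), and Sc5d, higher by 0.78 ± 0.29 (SE, adjusted p = 0.373). The arrays did not overlap for Sqle only, against 13.7% of all genes. The comparison of GFP-positive with GFP-negative cells of the mutants also called 0 of the 10 by limma, against 3.25% of all genes, with 3 at an unadjusted p under 0.05, against 13.5%. Sqle was higher by 1.06 ± 0.29 (SE, adjusted p = 0.0581), Fdft1 lower by the value given above and Dhcr7 higher by 0.40 ± 0.18 (SE, adjusted p = 0.33). Sqle and, on the probe set used, Fdft1 did not overlap there, against 15% of all genes. Calls of Sqle or Fdft1 appeared under several other settings, for Sqle also without GFP-positive replicate 2 and for Fdft1 without GFP-positive replicate 1. The 3 basal comparisons share arrays, so their values are not independent of each other.

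**Figure D3:**
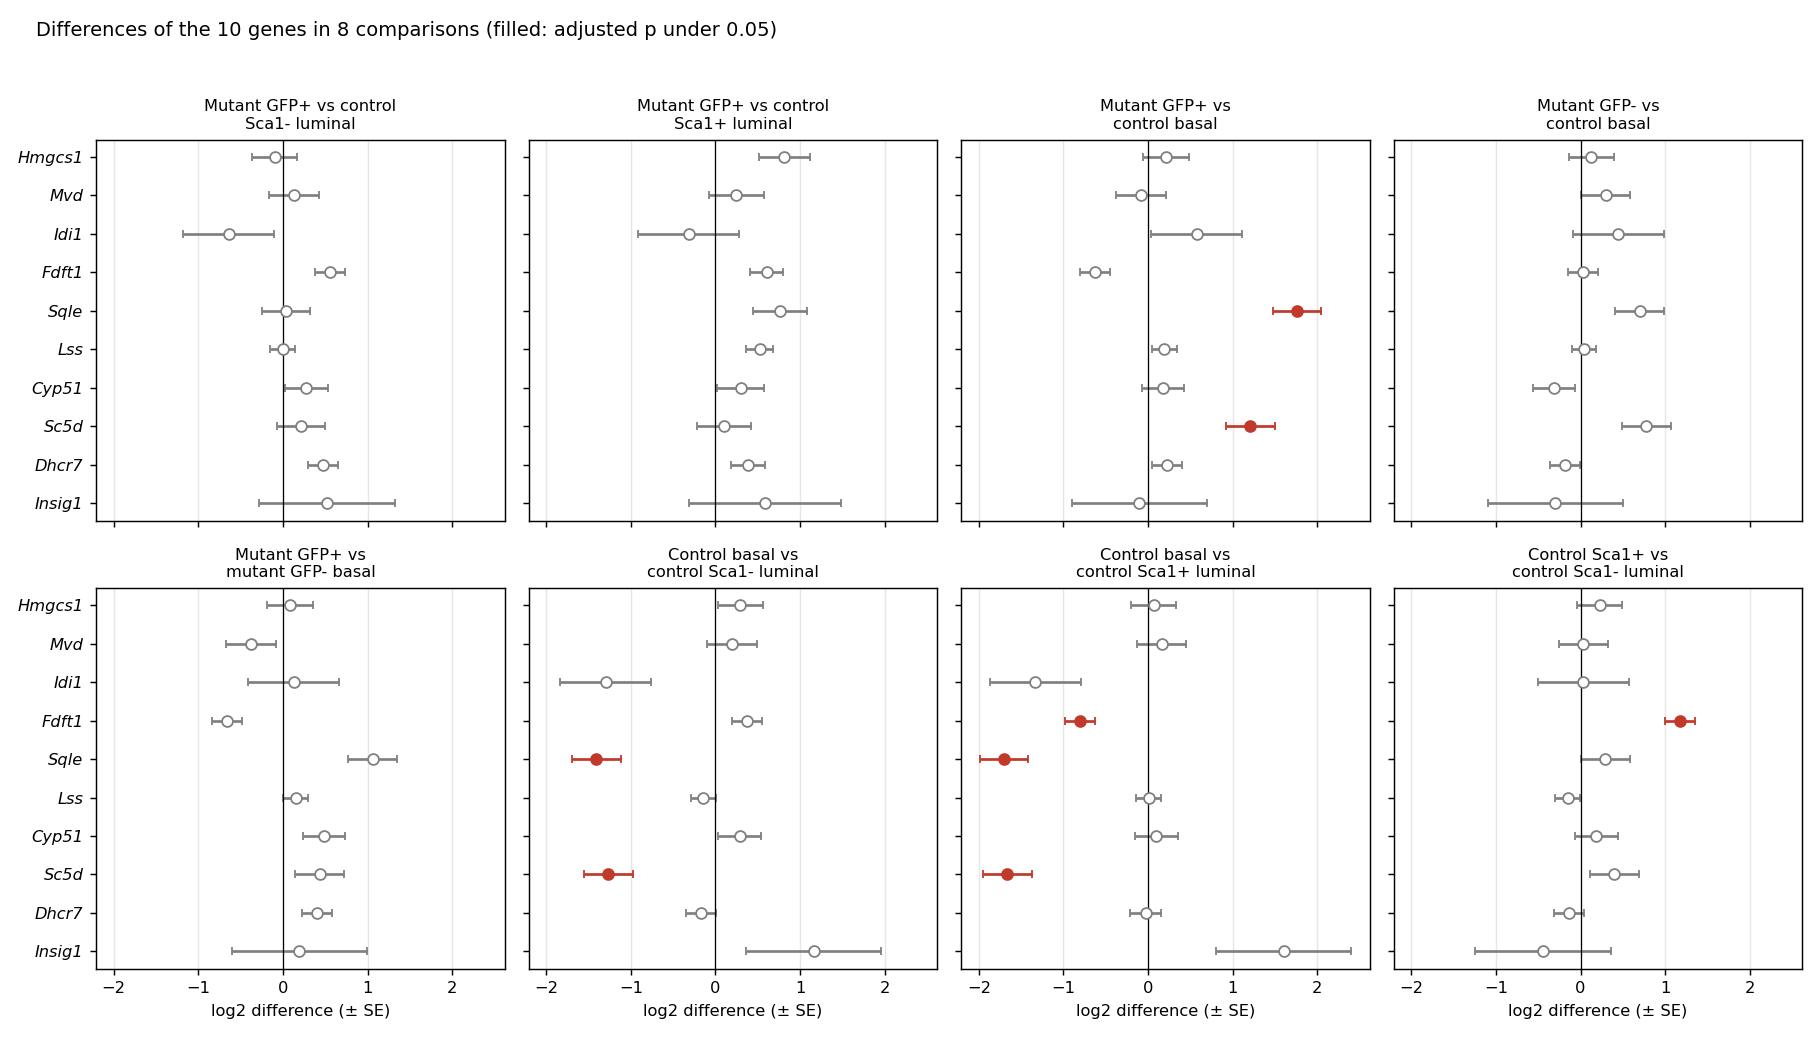
Log2 difference ± SE of each of the 10 genes in 8 comparisons, mutant or first-named group minus the other. Filled points passed an adjusted p of 0.05 in limma. In GFP-positive against control basal cells only Sqle (1.76) and Sc5d (1.21) are filled, and in the 2 luminal comparisons of mutant with control cells none is.

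In mutant against control Sca1-positive luminal cells, most of the pathway leaned upward but no gene was called. Of the 10 differences, 9 were above 0, against 39.2% of all genes, and their median was 0.45, against -0.05 over all genes. By limma 0 of the 10 were called, against 0.226% of all genes, and 4 had an unadjusted p under 0.05 with a positive difference, against 4.51% of all genes. These 4 were Hmgcs1, Fdft1, Sqle by 0.76 ± 0.32 (SE, adjusted p = 0.51) and Lss by 0.52 ± 0.16 (SE, adjusted p = 0.302). Together with Mvd (0.25) they made up the 5 genes whose mutant arrays all lay above the control arrays, against 10.9% of all genes. Only 2 mutant arrays were measured in this gate. The exception in direction was Idi1 (-0.32 ± 0.60, SE). Of 6 basal markers 1 was called (the keratin gene Krt5, higher by 2.14). The mean level of all 6 was 5.33 to 5.61 in mutant and 4.57 to 4.85 in control cells. Of 6 luminal progenitor and alveolar markers 1 was called (the milk protein gene Wap, higher by 4.26). The mean level of all 6 was 7.37 to 7.47 in mutant and 5.26 to 5.999 in control cells. The part of these markers in the sterol genes was not tested.

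In mutant against control Sca1-negative luminal cells, 0 of the 10 genes were called by limma, against 1.9% of all genes. An unadjusted p under 0.05 was reached by 2, Fdft1 and Dhcr7, against 11.2% of all genes. The median difference was 0.17, against -0.03 over all genes, with 7 of 10 above 0 (42.3% of all genes), and Fdft1 was the 1 gene without overlap, against 22.6% of all genes. Sqle differed by 0.04 ± 0.29 (SE) in this gate. Of 4 hormone-sensing luminal markers 3 were called lower (Esr1, Foxa1 and Pgr). The mean level of all 4 was 5.80 to 6.07 in mutant and 7.47 to 8.07 in control cells. Of 6 luminal progenitor and alveolar markers 2 were called higher (Elf5 and Wap). The mean level of all 6 was 8.81 to 9.25 in mutant and 6.92 to 7.63 in control cells. The part of the hormone-sensing and the progenitor and alveolar markers in the sterol genes was not tested. An interaction compared the mutant differences of both luminal gates with each other and called 0 of the 10 by limma, against 0.14% of all genes. At an unadjusted p under 0.05 it had 2, Hmgcs1 (0.91 ± 0.40, SE, adjusted p = 0.82) and Lss (0.53 ± 0.22, SE, adjusted p = 0.771), against 5.66% of all genes.

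The difference between transgene-expressing and control cells did differ between lineages for 2 genes. Set against the Sca1-negative luminal gate, the basal difference was more positive for Sqle, by 1.72 ± 0.41 (SE, adjusted p = 0.0443), and more negative for Fdft1, by -1.18 ± 0.25 (SE, adjusted p = 0.0239). These were 2 of the 10 genes, against 1.55% of all genes. Set against the Sca1-positive luminal gate, Fdft1 was again more negative, by -1.23 ± 0.27 (SE, adjusted p = 0.0341), as 1 of the 10, against 1.09% of all genes. Sqle did not pass there (0.997 ± 0.43, SE, adjusted p = 0.43). Both tests use the same basal arrays. These calls were lost under several other settings, and with the mean of both Fdft1 probe sets its first value was -0.69 (adjusted p = 0.296).

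In control glands the lineages differed for 3 of the 10 genes. Control basal cells had less Sqle (-1.41 ± 0.29, SE, adjusted p = 0.0038) and less Sc5d (-1.27 ± 0.29, SE, adjusted p = 0.00855) than control Sca1-negative luminal cells. These 2 of 10 stand against 9.89% of all genes called. Against control Sca1-positive luminal cells, Sqle fell by 1.70, Sc5d by 1.67 and Fdft1 by 0.80 (adjusted p = 0.000642, 0.000816 and 0.00589). These 3 of 10 stand against 12.3% of all genes called. In each of the 3 the basal arrays lay below the luminal ones, as they did for 12.8% of all genes. For Mvd (0.16, not called) they lay above, as for 12.3% of all genes. Idi1 was lower by 1.30 ± 0.54 (SE, adjusted p = 0.171) and by 1.33 ± 0.54 (SE, adjusted p = 0.136) in these comparisons, without a call. Between the control luminal gates, Fdft1 was higher in Sca1-positive cells by 1.18 ± 0.18 (SE, adjusted p = 0.00451), 1 of 10 against 0.762% of all genes. The calls against Sca1-negative luminal cells and between the luminal gates were lost when only the compared arrays were fitted (adjusted p = 0.0644 for Sqle, 0.0648 for Sc5d and 0.0607 for Fdft1).

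No other measured enzyme of the pathway was called in a comparison with mutant cells. The list held 10 such enzymes that were analysed. In each of the 5 comparisons that involve mutant cells, 0 of the 10 were called by limma, against 0.161% to 4.23% of all genes. At an unadjusted p under 0.05 there were 2 in each luminal gate and 1 in each basal comparison. That p was reached by 11.2% of all genes in the Sca1-negative and 8.96% in the Sca1-positive luminal gate, and by 16% (GFP-positive against control), 9.69% (GFP-negative against control) and 13.5% (GFP-positive against GFP-negative) in the basal gate. Their median differences were 0.17 in the Sca1-negative and 0.45 in the Sca1-positive luminal gate. In the basal gate the medians were 0.30 for GFP-positive and 0.15 for GFP-negative against control cells, and 0.05 for GFP-positive against GFP-negative cells. In that last comparison 5 of the 10 differences were above 0, against 7 or 8 of the 10 in the others. Medians over all genes lay between -0.05 and -0.01 in these 5 comparisons. Msmo1, the methyl oxidase that strips methyl groups from the sterol, had the widest differences of this list. It was at 5.69, 4.88 and 5.66 in GFP-positive basal cells and at 4.07, 6.18 and 3.39 in GFP-negative basal cells, against 3.38, 3.46 and 3.28 in control basal cells. All GFP-positive arrays lay above the controls, by 2.04 ± 0.58 (SE, adjusted p = 0.0644). In control basal cells Msmo1 was lower than in control Sca1-positive luminal cells by -2.08 ± 0.58 (SE, adjusted p = 0.0274). This 1 of 10 stands against 12.3% of all genes called there. It was the only call of the list between control lineages.

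The SREBP machinery showed no called gene: 0 of 5 measured regulators (Srebf1, Srebf2, Scap, Insig2 and Mbtps1) passed in limma in any of the 8 comparisons between groups. Of all genes, 0.161% to 12.3% were called in these comparisons. At an unadjusted p under 0.05, 1 of the 5 was higher in GFP-positive than in GFP-negative basal cells, against 6.95% of all genes. In the other 4 mutant comparisons 0 passed, against 8.96% to 16% of all genes. In control basal cells 1 was higher than in each control luminal group, against 9.81% (Sca1-negative) and 11.2% (Sca1-positive) of all genes. Srebf2, which encodes the main SREBP of the cholesterol branch, had 7.21 ± 0.59 in GFP-positive and 7.36 ± 0.14 in GFP-negative basal cells, against 7.60 ± 0.19 in control basal cells (SD, n = 3 each). Srebf1, whose product favours fatty acid genes, had 6.34 ± 0.53 in GFP-positive and 5.56 ± 0.80 in GFP-negative basal cells, against 5.61 ± 0.41 in control basal cells (SD, n = 3 each).

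Called differences were also found among genes next to the pathway. Lipa, the lysosomal lipase that frees cholesterol from lipoproteins taken up by the cell, rose in mutant Sca1-negative luminal cells by 2.75 ± 0.46 (SE, adjusted p = 0.00419). It also rose in GFP-positive basal cells, by 2.10 against control cells (adjusted p = 0.0147) and by 1.90 against GFP-negative cells (adjusted p = 0.0333). Scarb1, a receptor for high-density lipoprotein, rose in mutant Sca1-negative luminal cells by 0.84 ± 0.18 (SE, adjusted p = 0.0236). These were 2 of 6, 1 of 6 and 1 of 6 measured uptake and transport genes, against 1.9%, 4.23% and 3.25% of all genes. In the other 2 mutant comparisons 0 of 6 were called, with 3 (Sca1-positive luminal) and 1 (GFP-negative basal) at an unadjusted p under 0.05, against 8.96% and 9.69% of all genes. This list also differed between control lineages. In control basal cells 1 of the 6 was called higher and 2 lower than in Sca1-negative luminal cells, against 9.89% of all genes called. Against Sca1-positive luminal cells 1 was higher and 1 lower, against 12.3%. Between the control luminal gates 1 was lower in Sca1-positive cells, against 0.762%. Of 5 LXR, efflux and storage genes, 0 were called in the 5 mutant comparisons by limma, against 0.161% to 4.23% of all genes. An unadjusted p under 0.05 was reached by 1 in GFP-positive against control basal cells, against 16% of all genes. It was reached by 2 in GFP-positive against GFP-negative cells, against 13.5%, and by 0 in the other 3 comparisons, against 8.96% to 11.2%. In control glands Apoe, the lipoprotein component, and Abca1, the cholesterol exporter, were higher in basal than in both luminal gates (Apoe by 2.70 and 4.54, Abca1 by 1.05 and 1.47). Abcg1, another exporter, was lower (-0.91 and -1.08), all with adjusted p of 0.023 or less. These 3 of 5 stand against 9.89% (Sca1-negative) and 12.3% (Sca1-positive) of all genes called.

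Of the 8 fatty acid synthesis genes, 3 rose in GFP-positive against control basal cells, where 4.23% of all genes were called. They were Me1 (2.14, adjusted p = 0.00084), the malic enzyme that supplies NADPH, the elongase gene Elovl6 (1.85, adjusted p = 0.00836) and the desaturase gene Scd2 (1.80, adjusted p = 0.0294). Against GFP-negative basal cells Elovl6 (2.34), Scd2 (2.35) and Thrsp (1.59), a lipogenic regulator, rose, against 3.25% of all genes called. Me1 rose also in GFP-negative against control basal cells (1.99, adjusted p = 0.0252), and 7 of the 8 were not called there, against 0.161% of all genes called. By limma 0 of the 8 were called in the luminal comparisons of mutant with control cells, with 4 (Sca1-negative) and 3 (Sca1-positive) at an unadjusted p under 0.05, against 11.2% and 8.96% of all genes. Me1 was lower in control basal than in control luminal cells, by -3.27 and -2.94.

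One array of GFP-negative basal cells carried much of the spread in that group. Replicate 2 was the highest of its group for Hmgcs1, Mvd, Idi1, Cyp51 and Insig1, and replicate 3 for Fdft1, Sqle, Lss and Dhcr7. Replicate 2 was also the lowest for Sc5d. Its levels were 7.15 for Hmgcs1, 5.69 for Mvd, 6.37 for Idi1, 5.59 for Cyp51 and 7.41 for Insig1, as the plot of the basal arrays shows. Msmo1 (6.18, against 4.07 and 3.39) and the desaturase gene Scd1 (10.96, against 6.18 and 7.44) were raised on the same array, and a second Idi1 probe set read 8.12 there, against 3.29 and 3.75. Averaged over the 10 genes, the array lay 0.47 above its group mean. Its mean level of the 6 adipocyte markers was 4.04, against 3.88 and 3.86 on the other arrays of the group, and that of the luminal markers was 8.29, against 8.75 and 8.78. Their part in the raised sterol genes was not tested. Control basal replicate 2, the array with Insig1 at 8.32, was the highest of its group for Hmgcs1, Cyp51, Sc5d, Dhcr7 and Insig1 and the lowest for Idi1 and Sqle. Averaged over the 10 genes it lay 0.18 above its group mean.

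**Figure D4:**
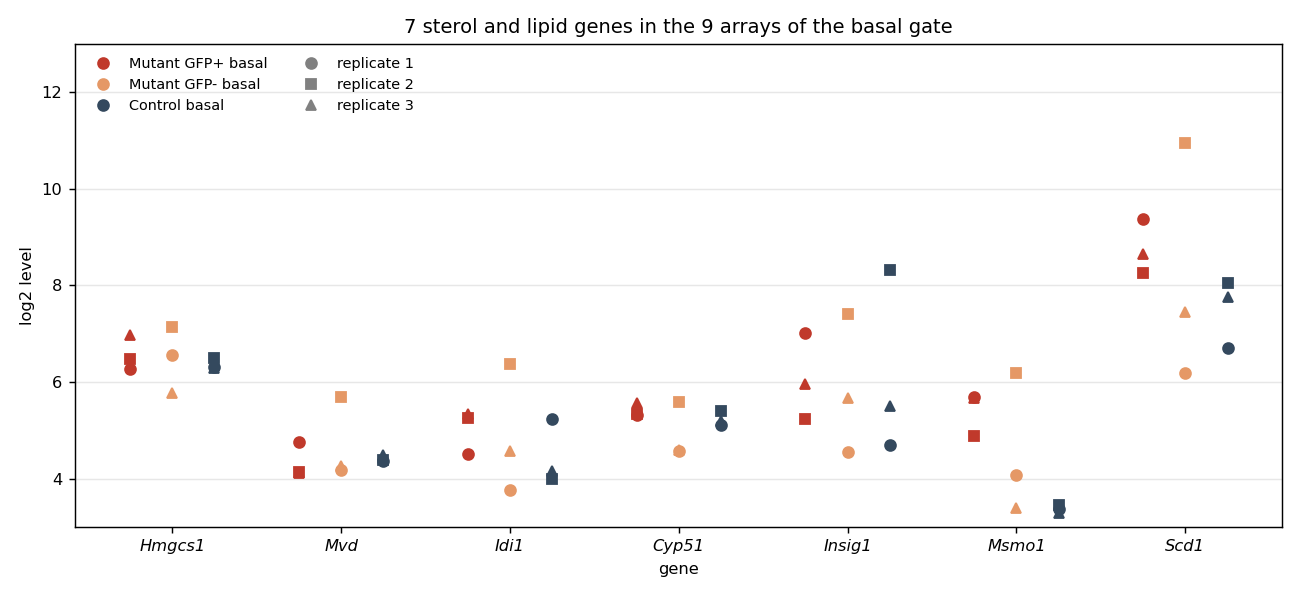
Log2 levels of 5 of the 10 genes, of Msmo1 and of the desaturase gene Scd1 on the 9 arrays of the basal gate. Colours give the group and shapes the replicate number. The 7 genes drawn were picked as ones for which replicate 2 of GFP-negative basal cells is the highest array of its group. Replicate 3 is the highest for Fdft1, Sqle, Lss and Dhcr7, which are not drawn.

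Genes whose group means most resembled the mean of the 10 were sought among 5276 genes whose 7 group means varied with an SD of 0.3 or more. The 5 with the highest Pearson r over the 7 group means were Hyou1 (0.986), Mpi (0.974), Derl2 (0.973), Prkcsh (0.969) and Htt (0.967). Hyou1, an endoplasmic reticulum chaperone, had means of 6.92 in mutant and 6.31 in control Sca1-positive luminal cells. It stood at 6.38 in GFP-positive and 6.15 in GFP-negative basal cells, against 5.72 in control basal cells. The likeness was picked as the best of many over 7 points and is given as a description.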

How the data were processed

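The authors deposited log2 probe set values, 1 column per array, from Affymetrix mouse gene arrays. No label names the unit, and a log2 scale was inferred because all values lay between 1.98 and 13.07, with 0 missing. Per the submitters' processing notes the affy package was used; no version or role is named. The labels and headers do not state normalization, filters or genome build, and the values were taken as deposited. Of 34760 probe sets, 21640 had a single symbol in the platform's annotation, 1321 had several and 11799 were not listed there. For 954 genes with several probe sets the one with the highest mean was used, which left 19937 genes with no filter on level.

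One model of 7 group means over the 20 arrays was fitted with limma 3.58.1 (lmFit, eBayes) in R 4.3.3, with Benjamini-Hochberg adjustment within each of 11 contrasts (5 with mutant cells, 3 between control lineages, 3 interactions) and no fold limit. It was tested on simulated data first. p-values measure the spread between separately sorted pools. Gates of 1 genotype can share pools, and the fit treats their arrays as independent. Precision is limited by the number of arrays. Alternatives were another choice of probe sets, array weights, a trended robust prior, leaving out genes with a mean below 3.86, quantile normalization, a replicate block, fitting only the compared groups and leaving out each array. One more, leaving out 3 arrays that stood apart, was chosen after seeing the data.

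The 10 genes and all gene lists were chosen with earlier results of these data known. Text names all 10 genes, list members that were called or whose level a result needs, and no other gene except the 5 most alike in group means.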

Additional observations from a re-analysis of the deposited data

Results flagged for a closer look

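For 2 genes the difference between GFP-positive mutant and control cells was itself different in the basal gate and in a luminal gate, by limma's interaction test. Fdft1 had a basal difference of -0.63 and a Sca1-negative luminal difference of 0.55, an interaction of -1.1834 (adjusted p = 0.0239). The basal mutant arrays lay below and the luminal mutant arrays above their controls on the probe set used, and a second probe set overlapped in both gates. Its interaction with the Sca1-positive luminal gate, where the difference was 0.61, was -1.2342 (adjusted p = 0.0341). Sqle had a basal difference of 1.76 and a Sca1-negative luminal difference of 0.04, an interaction of 1.725 (adjusted p = 0.0443).

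The first Fdft1 call was lost without control basal replicate 1, GFP-positive basal replicate 2 or 3, control Sca1-negative luminal replicate 2 or 3, or mutant Sca1-negative luminal replicate 1 or 2 (-1.18 to -1.03, adjusted p up to 0.0673). The second was lost without any 1 of 8 of the 11 arrays, all but control basal replicate 3, GFP-positive basal replicate 1 and control Sca1-positive luminal replicate 3 (-1.33 to -1.08, adjusted p up to 0.186). The Sqle call was lost without any 1 of 9 of the 12 arrays, all but control basal replicates 1 and 3 and GFP-positive basal replicate 2 (1.34 to 1.81, adjusted p up to 0.11).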

How the results depend on the processing

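Counts of the 10 genes called changed as follows. Fitting only the compared groups gave 0 in GFP-positive against control basal cells (2 in the fit over all groups), 0 in control basal against control Sca1-negative luminal cells (2), 0 between the control luminal gates (1), and 1 (Fdft1) and 0 in the interactions with the Sca1-negative (2) and Sca1-positive (1) luminal gates. Quantile normalization gave 3 in GFP-positive against control basal cells (Fdft1 added). Leaving out the 3 arrays that stood apart gave 3 in control basal against control Sca1-negative luminal cells (Idi1 added). None of these 3 arrays belongs to that comparison, so the Idi1 call came only through the spread shared by all groups. They include GFP-negative basal replicate 2, which was set apart by levels of the described genes, Idi1 among them, so this call is no separate evidence. Array weights gave 1 (Fdft1) in Sca1-negative luminal cells, where the fit without weights gave 0. In GFP-positive against GFP-negative basal cells, 0 became 1 (Sqle) with array weights, without dim genes and without the 3 arrays that stood apart, and 2 (Fdft1 and Sqle) with quantile normalization. The interaction with the Sca1-negative luminal gate had 1 (Sqle) with the mean of all probe sets, the trended robust prior or without the 3 arrays. That with the Sca1-positive gate had 0 under these 3 settings and under quantile normalization. With each array left out in turn, counts ran from 1 to 2 for GFP-positive against control basal cells, 0 to 1 against GFP-negative basal cells, and 0 to 2 and 0 to 1 in these interactions. In the other 7 contrasts no array changed the count. No value reversed its sign where it was called. Causes of these moves were not tested.

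Replicate numbers recur across groups. Deviations from group means correlated with r of -0.05 to 0.22 over 57 pairs of arrays with the same number (median 0.02, 5 above 0.1). Over 114 pairs with different numbers r was -0.14 to 0.08 (median -0.01, 0 above 0.1). Arrays with the same number were thus slightly more alike, and the labels do not say whether the numbers mark shared sorts. The main fit did not pair arrays, and a replicate block was run as an alternative. With the replicate block the count was 1 (Sqle) for GFP-positive against GFP-negative basal cells and 0 in the interaction with the Sca1-positive luminal gate, and it stayed the same in the 9 other contrasts.

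Over all genes the counts called moved by more than 1.5 times with array weights (819 against 378 in Sca1-negative luminal, 75 against 45 in Sca1-positive luminal, 10 against 32 in GFP-negative basal cells, 231 against 152 between control luminal gates, 72 against 28 in the luminal interaction). Fitting only the compared groups gave 12, 276, 0, 134, 43 and 124 in place of 45 (Sca1-positive luminal), 843 (GFP-positive basal), 32 (GFP-negative basal), 648 (GFP-positive against GFP-negative), 152 (control luminal gates) and 218 (interaction with the Sca1-positive gate). Leaving out 1 array did so in 6 contrasts. Sca1-negative luminal cells had 249 without control replicate 1 and 248 without mutant replicate 3, Sca1-positive luminal cells 19 without mutant replicate 3, and GFP-negative basal cells 63 without their replicate 3. Between the control luminal gates it was 82 and 83 without Sca1-negative replicate 1 or 3. The luminal interaction had 45 or 46 without replicate 1 of the Sca1-positive gate (control or mutant), and the interaction with the Sca1-positive gate 117 without mutant Sca1-positive replicate 3.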
